A study of Homo sapiens with 16 samples.

Results

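The sites described here lay near 7 genes of DNA repair and the DNA damage response that are listed as p53 targets: XPC, DDB2, RRM2B, POLH, FANCC, GADD45A and REV3L. The genes were listed by name and not by their peak values, though with earlier results of these data known, among 20136 protein-coding genes of the annotation. Every peak within 50 kb of the gene body was taken from 8 peak lists, which gave 81 of 76863 peaks. After overlapping peaks of the same factor were merged, these were 10 of 2980 p53 sites and 22 of 29064 CTCF sites.

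p53 is a transcription factor that is kept low in unstressed cells by the ubiquitin ligase MDM2, and Nutlin blocks the contact between both proteins so that p53 accumulates without DNA damage. p53 binds DNA as a tetramer at a pair of half-sites and activates genes for cell cycle arrest, apoptosis and repair. Its repair targets include the damage recognition proteins of nucleotide excision repair, polymerases that copy past lesions, and a ribonucleotide reductase subunit that supplies nucleotides. CTCF is a zinc-finger protein found at insulators and at the borders of chromatin domains.

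Binding of p53 and CTCF was measured by chromatin immunoprecipitation and sequencing (ChIP-seq) in a human mammary epithelial line before and after transformation by HRas. The series held 16 samples, of which 8 were inputs that entered through the peak caller alone. MCF10A, labelled Parental, is a non-tumorigenic line, and G12V is the same line with the genotype label H-RAS Gv12, made by lentiviral transduction of the G12V form of HRas and hygromycin selection. Each factor was mapped in 2 replicates of each line, described in the methods as biological replicas. Cells of both lines were treated with nutlin before fixation for the p53 samples, so no untreated p53 sample enters these values. The methods describe no such treatment for the CTCF samples, so p53 and CTCF positions are compared across unlike treatments. The antibodies were DO-1 against p53 and a Millipore antiserum against CTCF. The lists hold binding and no expression, so regulation of the genes was not measured.

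The p53 lists held between 477 and 2619 peaks and the CTCF lists between 11346 and 27678 peaks. The lists allowed the ChIP depth to be worked out, at 21.4 and 20.1 M reads (M is 1e6) for p53 in MCF10A and 9.26 and 33.2 M reads for p53 in G12V (replicates 1 and 2 in each case). The fragment length by which reads are extended into a pileup was 147 and 113 bp in the p53 libraries of MCF10A, and 279 and 180 bp in those of G12V. G12V replicate 1 had the shortest p53 list and the shallowest p53 library, and the names of its peaks carry the word "old". At the genome-wide background the fewest reads at the summit of a called peak numbered 9 and 7 for MCF10A and 10 and 15 for G12V. Where a list had no peak, binding was not detectable at the depth of that library, which does not show the site to be free of p53. Read numbers are given without an error, and they vary between replicates as well as by counting. At RRM2B the MCF10A replicates had 125 and 55 summit reads at depths of 21.4 and 20.1 M.

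The sequences under 7 of the p53 sites are shown because they separate sites with a p53 motif from sites without one. The motif searched was the p53 consensus of 2 adjacent half-sites of 10 bases each, on both strands, with the core bases of each half-site intact and at most 3 mismatches elsewhere, within 150 bp centred on the summit. Capitals mark the half-sites, each sequence is read on the strand of its gene, and coordinates are hg19. In intron 3 of GADD45A (chr1:68152453-68152518, + strand), a motif with 1 mismatch was followed by an AP-1 motif, TGAGTCA, also in capitals, with 42 bp between their centres.
GADD45A intron 3: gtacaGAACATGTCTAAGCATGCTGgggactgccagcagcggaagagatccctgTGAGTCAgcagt
At DDB2 (chr11:47236527-47236553, + strand) and downstream of GADD45A (chr1:68191055-68191083, + strand), half-sites without a mismatch were separated by spacers of 1 and 3 bp, in lower case.
DDB2 TSS: tttGAACAAGCCCtGGGCATGTTTggc
GADD45A downstream: aggAAACATGTCTgtcAAACATGTCTgta
In intron 4 of FANCC (chr9:97960105-97960134, - strand) and upstream of its canonical transcript (chr9:98097255-98097284, - strand), the motifs had 3 and 2 mismatches.
FANCC intron 4: gttcaGAACATGTCCAGGCTTGAGActttg
FANCC upstream: attaaAGGCATGCACCAACATGCCCagcta
The best match upstream of REV3L (chr6:111805338-111805367, - strand) had 4 mismatches and that in XPC (chr3:14219937-14219966, - strand) had 5, so neither passed.
REV3L upstream: gcagcTGACAAGTCCTTACATGTACttgcg
XPC start: ggtgaGAGCGAGGCCCAGCGGGCTTcgcgg

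Each of the 7 genes had at least 1 p53 site within 50 kb, compared with 18.9% of protein-coding genes. A site called in all 4 p53 libraries was found at 4 of 7 genes, DDB2, RRM2B, GADD45A and REV3L, compared with 2.4% of protein-coding genes, and 11.1% of all p53 sites were called in all 4. A site of both G12V libraries and neither MCF10A library was found at 1 gene, POLH, and the opposite class at none of the 7, compared with 0.447% of protein-coding genes and 2.18% of p53 sites. The genes were listed as p53 targets with earlier results of these data known, so these counts are a description. In MCF10A replicates 1 and 2, 5 and 4 of the genes had a p53 peak, where 10.7% and 5.91% of all genes did. In G12V replicates 1 and 2, 5 and 7 of the genes had one, where 3.47% and 17.1% of all genes did. The XPC site, the downstream POLH site and the upstream FANCC site were called in G12V replicate 2 alone, the deepest library, and without that library 7 sites at 6 genes remained. Of all p53 sites, 48.5% were called in 1 library and 38.5% in that library alone.

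**Figure D1:**
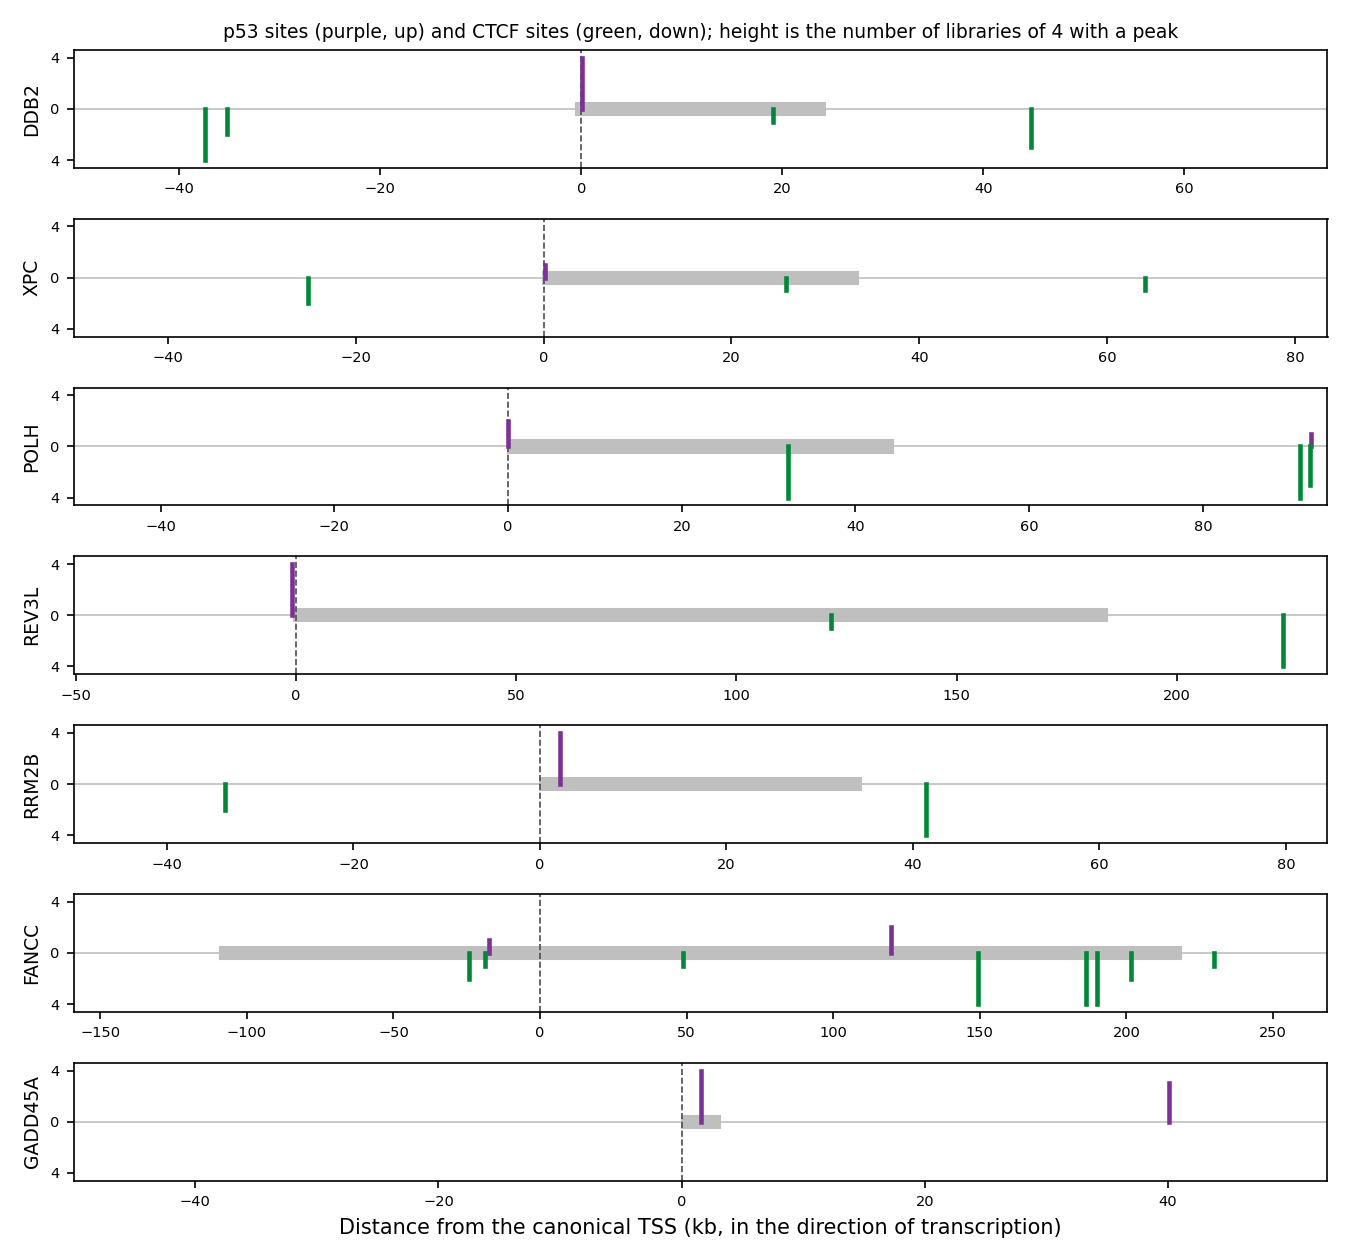
Position of p53 sites (purple, up) and CTCF sites (green, down) around each gene, by distance from the canonical transcription start site (TSS) in kb along the direction of transcription. The grey bar is the gene body and the height is the number of libraries, of 4, with a peak. The p53 sites of DDB2, XPC, POLH, REV3L, RRM2B and GADD45A include one close to the TSS, those of FANCC do not, and no CTCF site lay in the GADD45A window.

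The summit lay within 500 bp of a TSS at 3 of 10 sites (DDB2, XPC and POLH), compared with 3.52% of all p53 sites, and within 2500 bp at 6 of 10, compared with 9.03%. The strength of a site is given as fold enrichment, the ratio of the summit pileup to the local background after 1 is added to both, and as the rank of its q-value in its list. The caller had scaled G12V replicate 2 down to its input, so that each of its reads counts as 0.721 in the pileup, and its backgrounds are on that scaled-down unit while its summit reads are printed unscaled. In the other p53 libraries a read counts as 1. The median fold enrichment of all peaks stood at 8.68 and 8.48 in the p53 lists of MCF10A, and at 8.72 and 8.18 in those of G12V. Values below follow the order MCF10A replicates 1 and 2, then G12V replicates 1 and 2.

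The nucleotide excision repair genes were bound at their starts, DDB2 in all 4 libraries and XPC in 1. DDB2 encodes the DNA-binding subunit of the complex that recognises ultraviolet lesions in chromatin. Its site (chr11:47236317-47237063) had its summit 24 bp from the TSS, in the 5′ UTR, and the summits of the 4 libraries lay within 17 bp of each other. Fold enrichment was 19.3, 16.1, 7.29 and 35.1, from 48, 29, 37 and 193 reads at the summit. The G12V replicates held the lowest and the highest value, so the groups overlapped. The ranks were 214 of 1718, 119 of 885, 162 of 477 and 53 of 2619. The local background at DDB2, in pileup units, was 1.53 and 0.865 in the MCF10A libraries and 4.22 and 3 in the G12V ones, and G12V replicate 1 had both the highest background and the lowest fold enrichment. The adjacent-half-site motif there (chr11:47236520-47236539) had 1 mismatch, and its second half-site was also the leading half-site of the spaced match shown for DDB2.

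XPC encodes the damage sensor that starts global genome repair. Its site (chr3:14219698-14220264) lay in the coding part of the exon at its start, 112 bp from the TSS, and was called in G12V replicate 2 with a fold enrichment of 15.2 from 65 reads and rank 559 of 2619. The start of LSM3, on the opposite strand, lay 328 bp from the same summit. The site had no motif, and the 150 bp around its summit held 74.0% G and C. Among all p53 sites within 500 bp of a TSS, 70.5% were called in G12V replicate 2 alone and 41.9% had a motif, compared with 71.5% with a motif among the sites farther away.

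Among the translesion polymerases, REV3L was bound in all 4 libraries and POLH in the G12V libraries. REV3L encodes the catalytic subunit of polymerase zeta, which extends DNA past lesions. Its site (chr6:111804916-111805611) had the summit 912 bp upstream of the canonical TSS, outside the canonical transcripts. Fold enrichment was 12.5, 6.94, 8.69 and 35.9, from 34, 13, 37 and 183 reads, and the ranks were 461, 665, 125 and 59. By fold enrichment G12V replicate 2 stood above the other libraries, and G12V replicate 1 fell between the MCF10A replicates. By rank percentile the values were 73.2, 24.97, 74.0 and 97.8, with both G12V values above both MCF10A values. REV3L was the only one of the 4 genes with a site in all 4 libraries where that site lacked a motif. Of all p53 sites called in all 4 libraries, 88.9% had one.

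POLH encodes polymerase eta, which copies past ultraviolet-induced thymine dimers. Its first site (chr6:43543790-43544221) had the summit 49 bp from the TSS, in the 5′ UTR, and 196 bp from the start of the divergent gene XPO5. It was called in G12V replicates 1 and 2, with fold enrichments of 8.18 and 17.9 from 15 and 63 reads and ranks of 311 of 477 and 505 of 2619, and in neither MCF10A library. Such sites, with a peak in both G12V libraries and neither MCF10A library, were 1.41% of all p53 sites, and 0.452% of protein-coding genes had one within 50 kb. G12V replicate 1 was shallower than both MCF10A libraries but had the longest fragment length. The genome-wide background, in pileup units, was 0.957 in G12V replicate 1 and 1.16 and 0.842 in the MCF10A libraries. Both G12V libraries had a longer fragment length than both MCF10A ones, and its part in this call was not tested. With p53 lists reduced to equal length the site was called in G12V replicate 1 alone. No motif was found there.

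The other POLH site (chr6:43636257-43636437) lay 92419 bp downstream of the TSS, in intron 4 of RSPH9, and was nearer to the start of MRPS18A, at 19187 bp. It was called in G12V replicate 2 with a fold enrichment of 7.07 from 28 reads, had a motif with 3 mismatches, and overlapped a CTCF site. Of all p53 sites, 3.09% overlapped a CTCF site.

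RRM2B held the strongest of the p53 sites by rank. It encodes the p53-inducible small subunit of ribonucleotide reductase, which makes deoxyribonucleotides for repair. The site (chr8:103248799-103249423) lay in intron 1, with the summit 2113 bp from the TSS, and the summits of the 4 libraries fell within 4 bp of each other. Fold enrichment was 44.9, 19.2, 16.8 and 32.5, from 125, 55, 67 and 230 reads. Its ranks were 4 of 1718, 27 of 885, 20 of 477 and 29 of 2619, and it stood first among the sites of these genes in every list. The raw fold enrichments of the lines overlapped. The site had a motif with 1 mismatch and an AP-1 motif, with 34 bp between their centres.

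**Figure D2:**
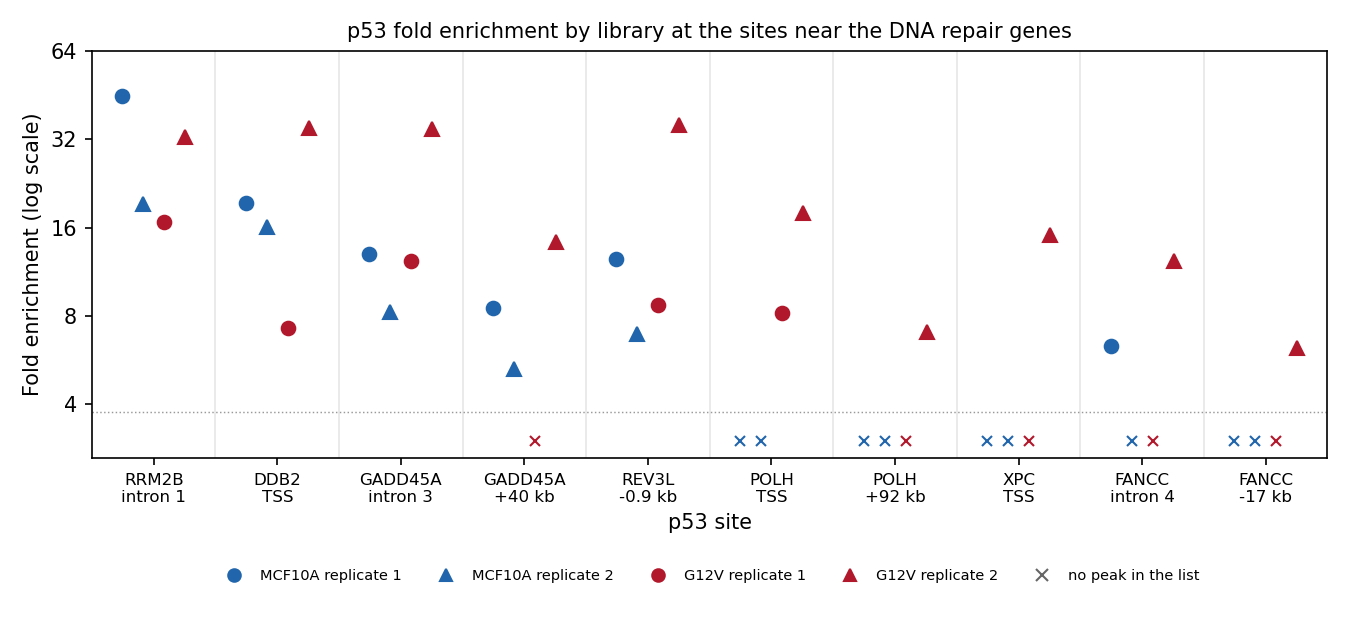
p53 fold enrichment (log scale) at the 10 sites in MCF10A (blue) and G12V (red), with replicate 1 as circles and replicate 2 as triangles; crosses under the dotted line mark libraries without a peak. RRM2B reached 44.9 in MCF10A replicate 1, and 3 sites had a value in G12V replicate 2 alone.

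FANCC, a subunit of the Fanconi core complex that acts on DNA interstrand crosslinks, had p53 sites only far from its canonical TSS. The gene body spans 327743 bp, and among genes of at least 150 kb 32.9% had a p53 site. The site in intron 4 (chr9:97959931-97960453), 119815 bp from the TSS, was called in MCF10A replicate 1 with a fold enrichment of 6.32 from 16 reads and in G12V replicate 2 with 12.3 from 43 reads. The ranks were 1330 of 1718 and 851 of 2619, and the summits lay 102 bp apart. The other site (chr9:98097186-98097365) lay 17279 bp upstream of the canonical TSS but inside the FANCC gene body, and was called in G12V replicate 2 with a fold enrichment of 6.22 from 21 reads and rank 2067. Neither site was called in MCF10A replicate 2 or G12V replicate 1, the libraries with the shortest lists.

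GADD45A, a small nuclear protein induced by growth arrest and DNA damage, had 2 p53 sites. The site in intron 3 (chr1:68151948-68152704), 1577 bp from the TSS, was called in all 4 libraries with summits within 16 bp. Fold enrichment was 13.0, 8.26, 12.3 and 34.7, from 34, 17, 23 and 154 reads, and the ranks were 450, 470, 144 and 87. By rank percentile the values were 73.9, 47.0, 70.0 and 96.7. On both scales G12V replicate 1 fell between the MCF10A replicates and G12V replicate 2 stood above them.

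The downstream site (chr1:68190749-68191181) lay 40131 bp from the GADD45A TSS, in intron 2 of GNG12, and no other protein-coding start was nearer. It had fold enrichments of 8.48 and 5.26 in MCF10A and 14.3 in G12V replicate 2, from 27, 10 and 65 reads, and no peak in G12V replicate 1. The weakest of these values stood at rank 851 of 885 in its list.

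**Figure D3:**
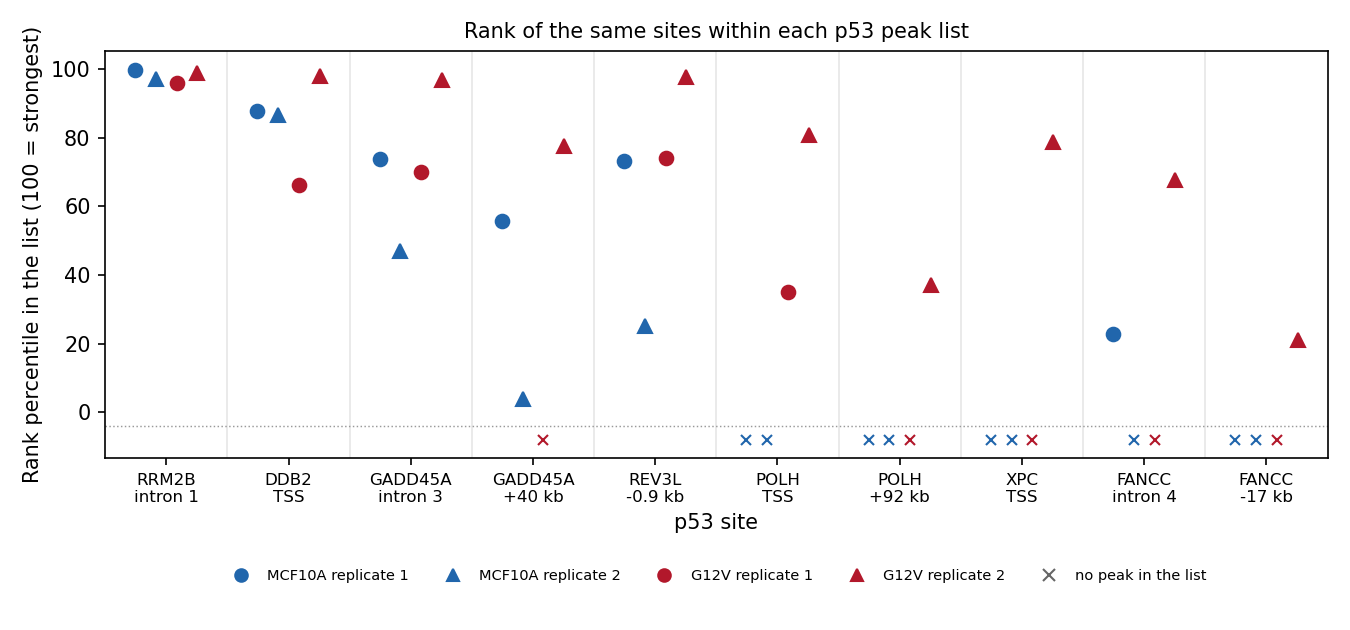
Rank percentile of the same sites in each p53 list (100 is the strongest peak), with colours, symbols and crosses as in the plot of fold enrichment. RRM2B lay between 96.0 and 99.8 in all 4 lists, whereas REV3L ranged from 24.97 to 97.8.

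In all, 6 of 10 p53 sites had a motif of adjacent half-sites, compared with 70.4% of all p53 sites and 0.973% of windows 2000 bp beside the summits. The sites without one were those at the starts of XPC and POLH, the REV3L site and the downstream GADD45A site. With a spacer of up to 3 bp allowed, the downstream GADD45A site also passed, and the share of all p53 sites was 75.1%. A motif with 1 mismatch was present at DDB2, RRM2B and intron 3 of GADD45A, and 26.7% of all p53 sites had at most 1 mismatch. An AP-1 motif (TGACTCA or TGAGTCA, which are each other's reverse complement) was present at RRM2B and intron 3 of GADD45A, and at 6.71% of all p53 sites. The 2 sites within 500 bp of a TSS that lacked a motif, XPC and POLH, each had the start of a divergent neighbour close by, LSM3 and XPO5. The REV3L site, 912 bp from its TSS and also without a motif, had no such neighbour close by. The share of all p53 sites with such a neighbour was not counted.

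Whether p53 binding at these sites differed between the lines was tested with limma on log2 fold enrichment, quantile normalised over the 332 p53 sites called in all 4 libraries, with Benjamini-Hochberg adjustment over all of them. None of the 4 sites of these genes passed, and 4.52% of the 332 sites did (15 sites, with 6 or 1.81% higher and 9 or 2.71% lower in G12V). Without adjustment, GADD45A and REV3L had p-values under 0.05, as did 21.1% of the 332 sites.

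At intron 3 of GADD45A the normalised log2 values were 3.46 and 3.47 for MCF10A and 4.19 and 4.42 for G12V. The difference was 0.84 (SE 0.371, 95% interval 0.0757 to 1.61, limma adjusted p = 0.193). At REV3L the normalised log2 values were 3.43 and 3.20 for MCF10A and 3.71 and 4.55 for G12V, with a difference of 0.81 (SE 0.390, 95% interval 0.00565 to 1.62, limma adjusted p = 0.234). Both normalised G12V values were above both normalised MCF10A values at these 2 sites, which was the case at 26.2% of the 332 sites. The raw fold enrichments overlapped at both, with G12V replicate 1 between the MCF10A replicates. On summit pileup per 1e6 reads in place of fold enrichment, the REV3L difference was 1.39 and passed (limma adjusted p = 0.0355). The local background at REV3L, in pileup units not divided by depth, was 1.80 and 1.02 in the MCF10A libraries. It was 3.37 and 2.7 in the G12V ones, and its part in this was not tested.

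At RRM2B the normalised log2 values were 5.44 and 4.60 for MCF10A and 4.55 and 4.32 for G12V, a difference of -0.59 (SE 0.391, 95% interval -1.40 to 0.215, limma adjusted p = 0.409). Both normalised G12V values were below both normalised MCF10A values, as at 23.8% of the 332 sites, while the raw fold enrichments overlapped. At DDB2 the normalised log2 values were 3.99 and 4.37 for MCF10A and 3.43 and 4.45 for G12V, a difference of -0.24 (SE 0.402, 95% interval -1.07 to 0.584, limma adjusted p = 0.802). The sign at DDB2 rested on G12V replicate 1, without which the difference was 0.25. The intervals at RRM2B and DDB2 include both no difference and a change of 1 log2 unit downward. An exact two-sided permutation test over the 6 assignments of 4 libraries cannot go below p = 0.333, which it gave at GADD45A, REV3L and RRM2B, and it gave p = 1 at DDB2.

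**Figure D4:**
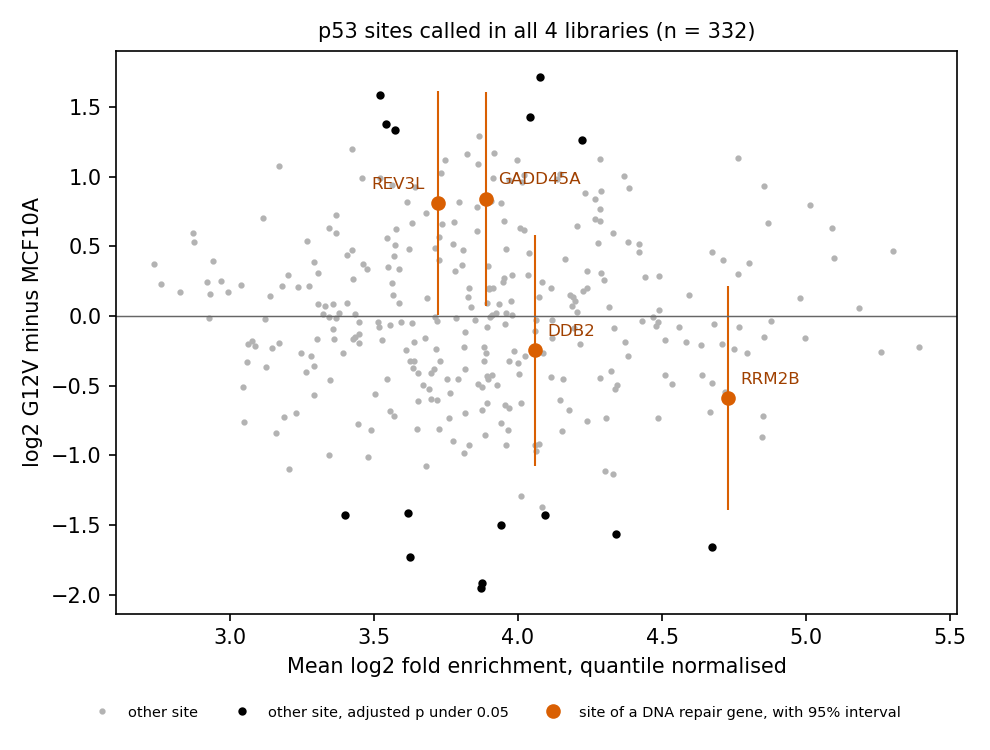
Difference in log2 fold enrichment, G12V minus MCF10A, against the mean of the lines for the 332 p53 sites called in all 4 libraries; black points passed the adjusted threshold of 0.05 and orange points are the sites of 4 DNA repair genes with their 95% intervals. GADD45A (0.84) and REV3L (0.81) lay above 0 and RRM2B (-0.59) and DDB2 (-0.24) below, and none of the 4 passed.

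CTCF sites lay within 50 kb of 6 of the 7 genes, compared with 85.5% of protein-coding genes. GADD45A was the exception. Its intron 3 site had the nearest CTCF sites 124942 bp upstream and 73689 bp downstream. Of the 22 CTCF sites, 8 were called in all 4 CTCF libraries, compared with 27.5% of all CTCF sites, and they lay near 5 of the 7 genes, DDB2, POLH, REV3L, RRM2B and FANCC, compared with 51.7% of protein-coding genes. XPC had 3 CTCF sites, each called in 1 or 2 libraries. FANCC, the longest gene, had 8.

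The nearest CTCF sites to the p53 site of DDB2 lay 35298 bp upstream, called in 2 libraries, and 19083 bp downstream in DDB2 itself, called in 1. Around the XPC site they lay 25144 bp upstream and 25656 bp downstream, called in 2 and 1 libraries. At RRM2B, a site 35856 bp upstream was called in 2 libraries and one 39241 bp downstream, past the end of the gene, in all 4. No CTCF site of any library lay between the p53 site and the TSS at DDB2, XPC, RRM2B, REV3L, intron 3 of GADD45A or the first POLH site. These sites lay only 24 to 2113 bp from the TSS, so such short intervals leave little room for one. None lay between at the downstream GADD45A site (40131 bp) or the upstream FANCC site (17279 bp) either. The intron 4 site of FANCC had 1 between and the downstream POLH site 3. The share over all p53 sites was not counted.

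The p53 site at the start of POLH had CTCF sites of all 4 libraries on both sides, 69344 bp upstream and 32219 bp downstream, the latter in intron 9 of POLH. The REV3L site had its nearest CTCF sites 81931 bp upstream and 122266 bp downstream, each called in 1 library. The intron 4 site of FANCC had one of all 4 libraries 29772 bp downstream and one of 1 library 71074 bp upstream, while the upstream FANCC site had one of 1 library 1445 bp upstream and another of 1 library 66020 bp downstream. The downstream POLH site lay 124 bp, summit to summit, from the CTCF site of 3 libraries that it overlapped, and 55379 bp from the next one beyond it. The downstream GADD45A site had CTCF sites 163496 bp upstream, in 2 libraries, and 35135 bp downstream, in 3. Between the lines, the 8 CTCF sites of all 4 libraries differed by -0.56 to 0.50 on the log2 scale, and none passed (limma, lowest adjusted p = 0.980). Over all 8006 such sites 0% passed, and 421 had an unadjusted p under 0.05, which is 5.26%.

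Genes of the same and other repair pathways, outside the 7 chosen as targets, were counted for comparison. Of 126 genes in 10 lists of repair pathways, 17 had a p53 site within 50 kb, which is 13.5% beside 18.9% of all protein-coding genes. A site of all 4 libraries was found at 1 of the 126, PCNA, the sliding clamp on which the translesion polymerases exchange. The PCNA site (chr20:5100554-5101077) lay 218 bp upstream of the TSS, with fold enrichments of 10.9, 8.21, 7.44 and 15.1. The difference between the lines there was -0.0067 on the log2 scale (SE 0.373, limma adjusted p = 0.989).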

How the data were processed

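Each deposited list came from 1 library. Per the labels and methods, the authors aligned reads to hg19 with Bowtie, kept unique alignments, and called peaks with MACS2 against input at a q-value of 5%, whereas the study itself combined replicates. The deposited columns used were the fold enrichment, which is a ratio to local background, the −log10 of p and of q for each summit, and where the summit lay. The deposited score is the −log10 q on another scale and was not analysed. No peak ended past a GRCh37 chromosome end. Genes were those of GENCODE release 44 on GRCh37, and the TSS was that of the canonical transcript. Sequence came from the GRCh37 assembly.

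Summit reads, background and depth were solved from fold enrichment and −log10 p, assuming a mappable genome of 2.7 Gb. Peaks with the most extreme p-values were not attempted, and at least 99.995% of the other peaks per library were solved. Peaks overlapping by at least 1 bp were merged. Differences were tested with limma 3.58.1 in R 4.3.3, and both this fit and the depth step were tested on simulated data. Same-numbered replicates were not treated as pairs, since their deviations correlated at 0.0553 for p53 and 0.0308 for CTCF. All 7 genes and their p53 sites are named, with the nearest CTCF site on each side, and by the same rule other repair genes are named where a site was called in all 4 libraries, which left PCNA. The further repair genes named in the closing section were chosen after their values were seen. The genes and lists were chosen with earlier results of these data known. With 2 replicates per group, the spread behind each limma p-value was mostly pooled over all tested sites. The pooled part had 22.37 degrees of freedom for p53 and 99.2 for CTCF, against 2 from the replicates of a site. Alternatives were other overlaps, q cutoffs, windows, list lengths, motif settings, scalings, a replicate block and leaving out each library.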

Additional observations from a re-analysis of the deposited data

How the results depend on the processing

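With each p53 list reduced to the length of the shortest, 5 p53 sites remained, 3 with a motif, REV3L was called in 3 libraries, and the site at the start of POLH was called in G12V replicate 1 alone. With CTCF lists of equal length, 13 CTCF sites remained, 5 of them in all 4 libraries, and within 10 kb of the genes there were 12 and 5. Leaving out 1 library gave 7 to 10 p53 sites, 6 to 7 genes with a site, 4 to 6 sites with a motif and 4 to 5 sites in all remaining libraries, and 18 to 22 CTCF sites with 8 to 9 in all remaining libraries. The number of p53 sites differing between the lines was 15 by fold enrichment, 26 by pileup per 1e6 reads and 0 by −log10 q, and leaving out 1 library gave 0 to 15: it was 0 without MCF10A replicate 2 or either G12V replicate. For CTCF, pileup gave 18 where fold enrichment gave 0. By pileup, 1 of the 4 p53 sites of these genes passed, which was REV3L, and under the other settings none did. The DDB2 difference was 0.61 by pileup, 0.36 by −log10 q and 0.25 without G12V replicate 1, and between -0.77 and 0.25 when 1 library was left out. The causes were not tested. Over all settings the difference ranged from 0.74 to 1.28 at GADD45A, 0.38 to 1.79 at REV3L and -1.04 to -0.0034 at RRM2B. These ranges mix scales. The upper ends at GADD45A and REV3L came from −log10 q and that at RRM2B from pileup, not from fold enrichment. With the replicate number as a block, 19 p53 and 0 CTCF sites differed, and no call at these genes changed. The labels share only a number, so the block is no evidence of pairing. With 2 libraries per line and no read-level files used here, weak sites are limited by depth.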

Other observations

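The other repair genes with a p53 site were counted by list, and those named here, apart from PCNA, were chosen after their values were seen. Nucleotide supply had the most, 4 of 7 genes: RRM1, RRM2, TYMS and SAMHD1. The TYMS site lay in intron 1, 630 bp from the TSS of this thymidylate synthase gene, and was called in 3 libraries. The RRM1 site lay 115 bp upstream of the TSS of the large ribonucleotide reductase subunit and was called in G12V replicate 2 alone. The RRM2 site lay 14668 bp from the TSS and was also called in G12V replicate 2 alone. The SAMHD1 site lay 38011 bp from the TSS and was called in MCF10A replicate 1 and G12V replicate 2. None of these sites was called in G12V replicate 1. Nucleotide excision repair had 2 of 25 genes (RAD23B and DDB1), translesion synthesis 2 of 11 (PCNA and UBE2A), the Fanconi anaemia pathway 1 of 15 (UBE2T) and mismatch repair 1 of 8 (MSH6). Base excision repair had 3 of 17 (NEIL1, POLB and FEN1), double-strand break repair 1 of 23 (RAD51D) and damage signalling 3 of 15 (ATM, ATRIP and MDC1). The sites counted for DDB1, UBE2A, UBE2T, NEIL1, POLB, FEN1, RAD51D, ATRIP and MDC1 lay nearer to the TSS of another gene. In the same order these were VWCE, SLC25A5, PPP1R12B, COMMD4, IKBKB, FADS1, UNC45B, PLXNB1 and IER3. The site counted for MDC1 lay 220 bp from the start of IER3. None of 2 GADD45 paralogues and none of 3 direct reversal genes had one. Over all protein-coding genes the share was 18.9%.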
